A study of Mus musculus with 3 samples.

Results

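Of the 78438 accessible regions of at least 150 bp listed at 6 h on chromosomes 1 to 19 and X, 920 (1.17%) had no counterpart before dTAG and were still listed at 72 h. The regions were read from ATAC-seq peak lists, in which each line is a stretch of DNA that a transposase could cut and tag more often than its surroundings. They were chosen by overlap alone: a 6 h region of at least 150 bp that shared no base with any region of the 0 h list and at least 1 bp with a region of the 72 h list. The 3 lists held 505332 regions in all, and that of 6 h held 178055 of any length. The measured lists therefore chose the members, and their presence at 6 h and 72 h and their absence at 0 h are the rule and not a result.

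The cells were the mouse ECOMG myeloid progenitor line with the genotype FKBP12F36V_NIPBL, and every library came from 50000 cells grown with GM-CSF and estradiol. The libraries were 0 h without dTAG, 6 h with dTAG and 72 h with dTAG, with 1 library at each time. With a single library per time no test was run, and effects of dTAG, of time and of the library itself cannot be told apart. Estradiol and GM-CSF were present at all 3 times, and whether the line is 1 clone is not given in the sources used here. On the label of the cells, the loci of 17 genes placed in a primary granule list held 132 of the 6 h regions of at least 150 bp. Primary granule genes are active in early granulocytes, but this list also holds Rgcc, a regulator of the cell cycle, and Nkg7, a cytotoxic granule protein. The loci of 25 genes of later (secondary or tertiary) granules had 155 and those of 32 genes of mature neutrophils 163. The loci of 25 monocyte and macrophage genes held 74, and those of 17 mast cell, basophil and eosinophil genes 55. These last 2 myeloid lists had fewer regions per gene than 26 lymphoid genes (86) or 21 erythroid and megakaryocyte genes (104), and 32 genes of non-myeloid tissues held 84. The loci of 25 progenitor and stem genes held 152, those of 24 dendritic genes 121 and those of 32 myeloid transcription factors 312. Counts of regions alone thus do not settle the label.

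NIPBL loads the ring-shaped cohesin complex on chromatin, and cohesin then extrudes DNA into loops until it meets a barrier such as CTCF. The FKBP12F36V tag lets the small molecule dTAG send the tagged protein to degradation. Open regions away from promoters are often enhancers, to which lineage factors of myeloid cells such as PU.1, C/EBP and RUNX proteins bind, and promoters of active genes are open as a rule. Loop extrusion is known to bring distant stretches of DNA, enhancers and promoters among them, closer together.

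Sequences are shown for the members whose 6 h summit lay in the promoter window of a named protein-coding gene, because there the new region can be tied to a gene start. The windows are those of RefSeq on GRCm38.p6, the assembly of mm10, and run from 250 bases before to 50 bases after a start. In all, 20 members touched such a window, and 7 coding promoters held the summit. These 7 were chosen after the values were seen. The part of the member upstream of the start is printed 5′ to 3′ on the strand of the gene, and capitals mark matches to the motif cores named in the next paragraph.
Entpd1, chr19:40659522-40659769, plus strand: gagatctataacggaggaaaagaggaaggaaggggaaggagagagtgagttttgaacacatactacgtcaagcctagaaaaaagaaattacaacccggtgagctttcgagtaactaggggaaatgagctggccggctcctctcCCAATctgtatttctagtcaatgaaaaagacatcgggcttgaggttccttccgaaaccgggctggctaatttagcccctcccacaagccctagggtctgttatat
Ly6g, chr15:75155150-75155328, plus strand: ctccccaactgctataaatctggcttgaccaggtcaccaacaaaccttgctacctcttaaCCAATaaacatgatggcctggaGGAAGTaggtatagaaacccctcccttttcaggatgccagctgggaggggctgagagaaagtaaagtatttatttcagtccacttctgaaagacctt
Cd177, chr7:24760312-24760437, minus strand: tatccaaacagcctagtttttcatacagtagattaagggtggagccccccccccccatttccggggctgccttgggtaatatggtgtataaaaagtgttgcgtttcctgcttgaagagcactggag
Arap2, chr5:62766178-62766386, minus strand: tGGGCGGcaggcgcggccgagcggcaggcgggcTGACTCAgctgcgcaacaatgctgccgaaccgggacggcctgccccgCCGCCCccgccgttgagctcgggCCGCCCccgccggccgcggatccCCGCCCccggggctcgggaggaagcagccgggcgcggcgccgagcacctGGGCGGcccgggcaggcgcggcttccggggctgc
Lrrc14b, chr13:74364015-74364164, minus strand: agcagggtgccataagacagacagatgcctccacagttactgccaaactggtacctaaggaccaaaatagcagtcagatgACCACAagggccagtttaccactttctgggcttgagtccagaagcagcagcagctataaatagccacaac
Pank2, chr2:131261891-131262007, plus strand: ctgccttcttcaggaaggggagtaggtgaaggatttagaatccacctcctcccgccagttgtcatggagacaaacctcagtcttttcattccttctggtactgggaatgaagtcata
Liph, chr16:21995543-21995612, minus strand: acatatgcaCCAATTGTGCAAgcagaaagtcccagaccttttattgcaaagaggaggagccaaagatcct

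The cores searched on both strands were GGAAGT (ETS, the family of PU.1), TTGCNNAA (C/EBP), TGANTCA (AP-1), TGTGGT (RUNX), GAAA followed by another GAAA after 2 bases (IRF), AGATAA of GATA factors, GGGA followed by CC after 4 bases (NF-kB), CCA, AG and GG with 2 bases between each (CTCF), CCAAT (NF-Y) and GGGCGG (SP and KLF factors). The Ly6g stretch held an ETS core at −97 and an NF-Y core at −119, counted from the start site to the first base of the match. For Ly6g this is the start at 75155329. Another listed start of Ly6g, at 75155261, has a window that does not hold the summit, and printed bases after it lie downstream of that start. The Entpd1 stretch held an NF-Y core at −105, Lrrc14b a RUNX core at −84 and Arap2 an AP-1 core at −176 beside 5 SP and KLF cores. In Liph a C/EBP core at −57 overlapped an NF-Y core at −61. The Cd177 and Pank2 stretches held none of these letters. Over the 250 upstream bases of 32851 RefSeq windows, the cores were found in 19.7% (ETS), 9.56% (C/EBP), 6.75% (AP-1), 14.0% (RUNX), 33.8% (NF-Y) and 32.7% (SP and KLF). The cores of IRF (2.98%), GATA (9.99%), NF-kB (17.6%) and CTCF (5.83%) were in none of the 7 printed stretches, which are mostly shorter than those windows. A match is a string of letters and not a binding site.

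These promoter members were low at 6 h. Each height is the fold of the region as deposited, the ratio of its summit to the peak caller's background. It is the authors' value and ranks a region within its own list only. If the fold is the summit fragments plus 1 over the background plus 1, its even steps give the fragments at the summit. Cd177, a surface glycoprotein of neutrophils, had a fold of 9.04 (11 fragments) at 6 h and 10.1 (12 fragments) at 72 h, with a 0 h region 354 bp away that did not reach it. Ly6g, the neutrophil surface antigen recognised by Gr-1 antibodies, had 8.29 (10 fragments) and 12.5 (15 fragments), and its nearest 0 h region lay 1297 bp away. Ly6g lies in a family of similar genes, so reads may be shared between copies. Both are genes of maturing neutrophils. That no 0 h region met either member is the rule of choice, shared with the other printed promoters, and not a result.

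Entpd1, the ectoenzyme CD39 that breaks down extracellular ATP, had a fold of 5.27 (6 fragments) at 6 h and 12.5 (15 fragments) at 72 h. Arap2, a GTPase-activating protein of Arf proteins, had 6.78 and 7.81, and its member began 22 bp from a 0 h region of fold 44.6. Pank2, a kinase of coenzyme A synthesis, had 6.03 and 4.68, Lrrc14b 5.27 and 7.81, and Liph, a phospholipase, 4.52 and 3.90. These promoter members thus rested on 5 to 11 fragments at 6 h, and only those of Arap2, Lrrc14b, Pank2, Entpd1 and Cd177 lay under 500 bp from a 0 h region.

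Across all 920 members the summits were low at both times. The 6 h fold ran from 3.01 to 34.7 with a median of 5.27, the middle 50% of members lay between 4.52 and 6.78, and 31 reached a fold of 10. In the 72 h list the overlapping regions ran from 3.12 to 235 with a median of 7.81, the quartiles were 5.46 and 12.5, and 327 reached a fold of 10. If the fold has the form given above, its median corresponds to 6 fragments at the 6 h summit, with an exact Poisson 95% interval of 2.2 to 13.1 fragments. At 72 h the median corresponds to 9 fragments, with an interval of 4.12 to 17.1. Such an interval leaves out that only summits that passed the peak caller are listed. Intervals here cover counting error only. A summit of 3 fragments was the lowest in each list, so a locus without a region at 0 h may hold signal just below the limit of listing. The lists come from many cells at once, so a site open in few cells and one slightly open in all cannot be told apart.

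Member regions had a median length of 172 bp at 6 h (150 to 386 bp) and 171 bp at 72 h (58 to 1452 bp). The 1031 regions that were new at 6 h and not listed at 72 h also had a median 6 h fold of 5.27. Their upper quartile was 6.03 against 6.78 in members, and their upper decile 7.54 against 8.29. Their highest fold was 110 against 34.7. The 76487 regions of at least 150 bp listed at 0 h as well were higher at 6 h, with a median fold of 19.6. Regions listed only at 72 h, 4503 of at least 150 bp, had a median 72 h fold of 8.59. At the length limit, the 137 members of 150 to 154 bp had median folds of 5.27 at 6 h and 7.81 at 72 h, and 149 new and kept regions just outside it, of 145 to 149 bp, had 5.27 and 7.03.

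**Figure D1:**
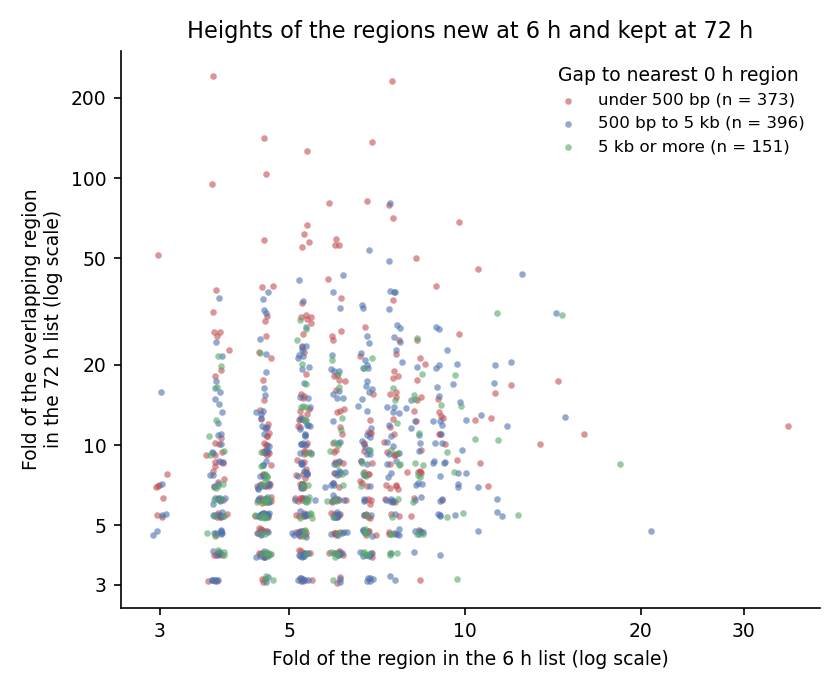
Fold in the 6 h list (x, log scale) against fold of the overlapping region in the 72 h list (y, log scale) for each of the 920 members, coloured by the gap to the nearest 0 h region; points are shifted slightly at random because folds fall on even steps. Most points lie between folds of 4 and 10 at 6 h, and most points above a 72 h fold of 50 have a 0 h region under 500 bp away.

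The highest members at 6 h did not stand highest at 72 h. The member with the highest 6 h fold, 7241 bp from an end of the clone-named gene 2410004B18Rik, had 34.7 (45 fragments) at 6 h and 11.7 (14 fragments) at 72 h. Second was a member 10646 bp from Tars, the threonyl-tRNA synthetase, with 20.3 and 4.68, and next one inside Fnta, a subunit of protein farnesyltransferase, with 18.8 and 8.59. Srrm1, a splicing coactivator, held one of 16.6 and 10.9, and Vgll4, a cofactor of TEAD factors, one of 15.1 and 12.5.

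Other high members at 6 h were also high in the 72 h list. One inside Runx2, a RUNX factor, at chromosome 17, 44727820 to 44728046, had 12.8 (16 fragments) at 6 h and 43.7 (55 fragments) at 72 h; a 0 h region of fold 12.1 lay 568 bp away, and the nearest gene end was that of Supt3, 49172 bp off. One 4128 bp from Zdhhc7, a palmitoyltransferase, had 14.3 and 30.4. One inside Grm5, a glutamate receptor, had the same pair of folds, and its nearest 0 h region was 6719 bp away. Fmo4, a flavin monooxygenase, had a member 280 bp from its end with 11.3 and 31.2, and there the nearest 0 h region was 12000 bp away. This member tied at 6 h with others, such as one inside Mbnl2 of 11.3 and 17.2. The 72 h height broke the tie, so its high 72 h value follows from the choice. A member inside Ctsb, the lysosomal protease cathepsin B, had 14.3 and 17.2.

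The remaining 5 of the 15 highest at 6 h had folds of 12.1 to 13.6 at that time. They lay nearest to the ends of Rreb1, a zinc finger factor (10.1 at 72 h), Dnajb7 (20.3), Sugct (16.4), Bag3, a co-chaperone (11.7), and Eva1c (5.46). The member next to Dnajb7 lay inside Xpnpep3, a mitochondrial aminopeptidase.

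The largest 72 h values belonged to members that lay beside a region already listed at 0 h. Of the 24 members whose 72 h region had a fold of at least 50, 22 had a 0 h region under 500 bp away, and in 18 the 72 h region itself also overlapped a 0 h region. The member near Pik3r1, a regulatory subunit of PI3 kinase, had a 6 h fold of 3.77 (4 fragments), and the 72 h region over it, chromosome 13, 101663920 to 101664805, had 235. That 72 h region also covered a 0 h region of fold 140 and another 6 h region of fold 157. The 6 h member was a low flank of a region high at all 3 times, and its summit lay 456 bp from that of 72 h.

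Of the 10 members with the highest 72 h regions, 8 had such a region over a 0 h region. Beside Pik3r1 they lay nearest to Dnah17, a dynein chain (7.54 at 6 h and 224 at 72 h), Ythdf1, a reader of N6-methyladenosine (4.52 and 142), Rxra, the retinoid X receptor alpha (6.78 and 137), Ptp4a1, a phosphatase (5.27 and 127), Car12, a carbonic anhydrase (4.52 and 108), Wdfy3, an autophagy scaffold (3.77 and 95.2), and Map3k5, a stress kinase (7.54 and 82.0). The highest 0 h region under each of these 72 h regions had a fold of 28.0 to 140.

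The other two of the 10 had no 0 h region under them. One, inside the overlapping spans of Cdh23, a cadherin, and Vsir, the immune checkpoint protein VISTA, had 6.78 (8 fragments) at 6 h and 82.0 (104 fragments) at 72 h, with a 0 h region 202 bp away. The other lay 11488 bp from Cd14, the lipopolysaccharide co-receptor of monocytes and neutrophils, at chromosome 18, 36713451 to 36713646. It had 7.54 (9 fragments) at 6 h and 80.4 (102 fragments) at 72 h, and its nearest 0 h region, 2161 bp away, had a fold of 4.54. Its 6 h fold equalled the median of the whole 6 h list, short regions included, while the median of the whole 72 h list was 9.37.

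Among members whose gap to 0 h was at least 500 bp and whose 72 h region touched no 0 h region, that near Cd14 was the highest at 72 h. Next came members inside Dab2, an endocytic adaptor (6.78 at 6 h and 53.1 at 72 h), Igf2bp2, an RNA-binding protein (7.54 and 48.4), Runx2, Pebp4 (6.03 and 42.9) and Mapre2, a microtubule-binding protein (5.27 and 41.4). Lower in that order, with others between, members near Siglecg, an inhibitory receptor of leukocytes, and inside Itpr1, a calcium channel of the endoplasmic reticulum, had 4.52 at 6 h each, and 35.1 and 36.7 at 72 h. These genes were named after the values were seen.

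**Figure D2:**
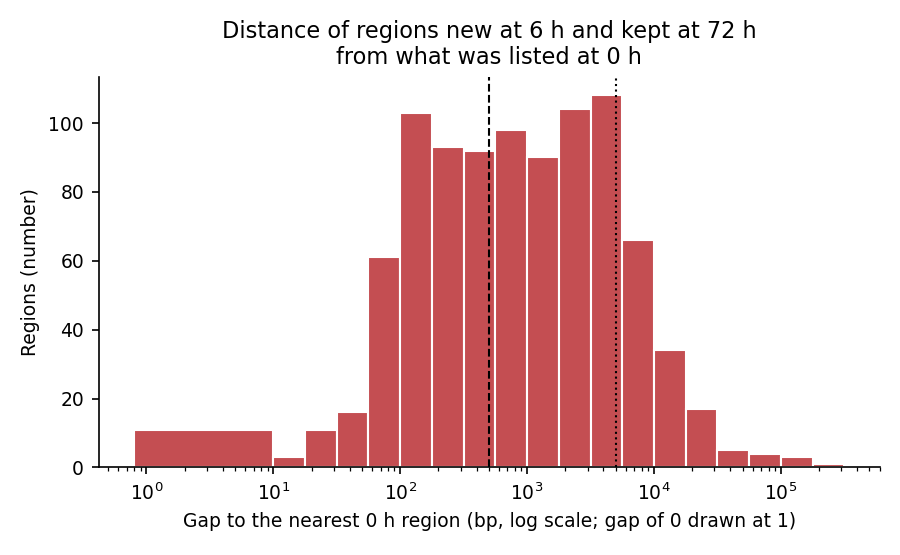
Number of members (y) by the gap between the member and the nearest 0 h region (x, bp, log scale, a gap of 0 drawn at 1), with a dashed line at 500 bp and a dotted line at 5 kb. The median gap was 838 bp, 373 members lay under 500 bp and 151 at 5 kb or more.

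Many members lay next to chromatin already listed before dTAG. The gap to the nearest 0 h region had a median of 838 bp in members, against 1596 bp in new regions not kept and 1280 bp in regions listed only at 72 h. It was under 500 bp in 40.5% of members (37.4 to 43.8, exact Clopper-Pearson 95% interval), against 30.9% (28.1 to 33.9) of those not kept and 28.9% (27.6 to 30.3) of those listed only at 72 h. At 5 kb or more lay 16.4% (14.1 to 19.0) of members, against 26.0% (23.3 to 28.8) and 18.7% (17.5 to 19.8). Of the 373 members under 500 bp, 330 had a 0 h region within that distance that was also listed at 6 h, and 325 one that was also listed at 72 h. The nearest 0 h region of these 373 had a median fold of 8.32, with quartiles of 4.54 and 28.0.

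Members close to a 0 h region also lay closer to genes. Within 1 kb of a coding gene end lay 22.3% (18.1 to 26.8) of the 373, against 5.81% (3.72 to 8.59) of the 396 members with a gap of 500 bp to 5 kb and 1 of the 151 with a larger one. Median 72 h folds of the gap classes were near each other, at 7.81 under 500 bp, 7.81 from 500 bp to 5 kb and 7.03 beyond. The highest values differed more, at 235, 80.4 and 31.2.

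Far from any 0 h region, members with the highest 72 h folds lay near Fmo4 and inside Grm5, as given above, and then near B4galt5, a galactosyltransferase (5.27 at 6 h and 28.9 at 72 h), inside Prmt3, an arginine methyltransferase (5.27 and 27.3), near Sbk2, a kinase gene (10 summit fragments at 6 h and 31 at 72 h), 114345 bp from Egfr, the EGF receptor (5.27 and 24.2), and near Nampt, the enzyme of NAD salvage that neutrophils release as a cytokine (4.52 and 21.9). That near Nampt lay 37194 bp from the gene end and 6834 bp from the nearest 0 h region. These too were named after the values were seen.

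Of the 1951 regions new at 6 h, 47.2% (44.9 to 49.4) were listed at 72 h, while of the 76487 that were also listed at 0 h 89.7% (89.5 to 90.0) were. Listing followed height. In the class of 6 h −log10 q under 5, 36.4% (33.1 to 39.9) of new regions and 49.0% (46.7 to 51.4) of those listed at 0 h were kept. At 7.5 to 10 the shares were 57.7% (52.1 to 63.2) and 70.2% (68.9 to 71.5), and at 15 or more 81.6% (65.7 to 92.3) and 96.1% (96.0 to 96.3). The share of new regions was the lower one in each of the 6 height classes, and the intervals overlapped in that of 12.5 to 15, where 18 of 24 new regions were kept (75%, 53.3 to 90.2, against 80.8%, 79.1 to 82.4).

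Once kept, new regions were about as high at 72 h as others of their 6 h height. Their median 72 h fold was 6.25 against 7.03 in the class under 5, 7.03 in both groups at 5 to 7.5, 8.59 against 7.81 at 7.5 to 10 and 9.76 against 9.37 at 10 to 12.5. In the open class of 15 or more it was 11.7 against 28.9, but there regions listed at 0 h reach far greater 6 h heights.

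**Figure D3:**
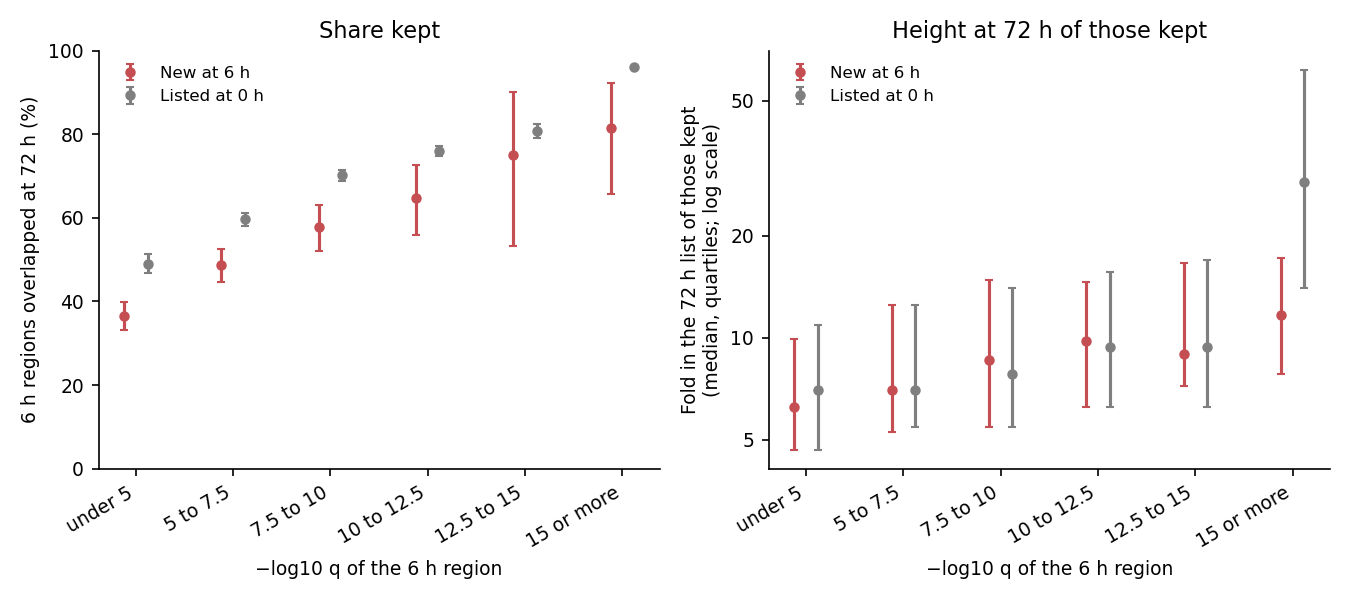
Left, share of 6 h regions overlapped at 72 h (y, %) by class of 6 h −log10 q (x), with exact 95% intervals; right, fold of the kept regions in the 72 h list (y, log scale, median and quartiles) by the same classes. Regions new at 6 h are red and lie below the grey regions listed at 0 h in each class on the left, by 36.4% against 49.0% in the lowest.

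A mirror set gives the frequency of the opposite pattern. Of 76155 0 h regions of at least 150 bp, 1592 had no overlap at 6 h, and 458 of these (28.8%, 26.6 to 31.1) were listed at 72 h, against the 47.2% of regions new at 6 h. As shares of all regions of their list, members made up 1.17% and the mirror set 0.601%. With −log10 q under 10 the shares listed at 72 h were 44.7% (42.4 to 47.1) of regions new at 6 h and 29.0% (26.7 to 31.4) of 0 h regions absent at 6 h. With no region of the other list within 500 bp, they were 43.4% (40.7 to 46.2) and 22.7% (20.0 to 25.5). The 0 h regions absent at 6 h were also lower, with a median fold of 4.54 in their list against 5.27 for regions new at 6 h. The −log10 q limit kept most of both (1494 of 1592 and 1756 of 1951), so it did not match their heights. Whether height accounts for the different shares was not tested. The 2 sets come from different libraries with different call limits, and each set rests on 1 library per time.

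The 69566 6 h regions overlapped at 72 h were ranked at 6 h, and by the highest 72 h region over each at 72 h. The members' median rank was the 2.56th percentile at 6 h and the 16.7th at 72 h. A 72 h region over several 6 h regions was ranked once for each of them. A member could thus take the rank of a 72 h region that also covered a higher 6 h region, as near Pik3r1. In 774 of the 920 (84.1%, 81.6 to 86.4) the rank was higher at 72 h. The members, chosen on both lists, lay near the bottom of the 6 h ranking, where little room is left below. For the 785 members with a 6 h −log10 q under 10, the share with a higher rank at 72 h was 87.1% (84.6 to 89.4), and for 6746 kept regions of that height that were listed at 0 h it was 82.2% (81.2 to 83.1). Below that limit the members still ranked lower at 6 h, with a median percentile of 2.56 against 6.89, and so had more room to rise. In the upper 50% of the whole 72 h list, short regions included, stood 372 members, and in that of the 6 h list 222.

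Summits of members lay close together at both times. The distance between the 6 h summit and that of the overlapping 72 h region had a median of 34 bp in members, against 19 bp in kept regions listed at 0 h. At −log10 q under 10 the medians were 37 bp and 33 bp. For 14 members the 6 h region met more than 1 region at 72 h, and for 73 (7.93%, 6.27 to 9.87) the 72 h region reached a 0 h region as well.

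Relative to genes, members were mostly distal. Within 1 kb of a coding gene end lay 11.6% (9.63 to 13.9) of members, against 9.31% (7.61 to 11.3) of new regions not kept, 7.24% (6.50 to 8.04) of regions listed only at 72 h and 21.4% (21.1 to 21.7) of 6 h regions listed at 0 h. Among regions with −log10 q under 10, it was 12.1% (9.90 to 14.6) of members and 14.9% (14.2 to 15.5) of those listed at 0 h. Inside the span of a coding gene lay 56.4% (53.1 to 59.7) of members, against 50.3% (47.2 to 53.4) of those not kept and 53.6% (53.3 to 54.0) of those listed at 0 h. The share was 58.3% (56.9 to 59.8) in regions listed only at 72 h and 61.4% (56.7 to 65.8) in the mirror set. Both were above that of members, with overlapping intervals. With −log10 q under 10, it was 55.3% in those listed at 0 h, within the members' interval of 51.5 to 58.6. Over 100 kb from any gene end lay 7.28% (5.69 to 9.16) of members, against 11.4% (9.57 to 13.6) of those not kept and 7.12% (6.94 to 7.30) of those listed at 0 h.

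Surroundings of members and of other groups are given as shares. In the gene-poor part of the genome, of at most 3 coding genes per 1 Mb bin, lay 9.78% (7.94 to 11.9) of members, against 14.5% (12.4 to 16.7) of new regions not kept and 9.68% (9.47 to 9.89) of regions listed at 0 h. A region listed only at 72 h lay within 10 kb of 17.3% (14.9 to 19.9) of members, against 6.30% (4.90 to 7.97) of those not kept and 11.9% (11.7 to 12.1) of those listed at 0 h. A region listed at 0 h and 6 h but lost at 72 h lay within 10 kb of 11.8% (9.83 to 14.1), against 18.9% (16.6 to 21.4) and 15.2% (11657 of 76487), not counting a lost region that the region itself overlapped. The same 72 h list sorted new regions into kept and not kept and gave both neighbour measures, so these shares are a description.

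Members were mostly single. Another member lay within 10 kb of 5.76% (4.34 to 7.47), and 4.46% (3.28 to 5.91) of new regions not kept had another of their own group that near. In the larger groups it was 22.9% (21.7 to 24.2) of the 4503 regions listed only at 72 h and 79.0% of the 76487 listed at 0 h. Such a share depends on the number of regions in a group, and the share expected for 920 regions was not computed. By chromosome, members made up 0.854% (0.577 to 1.22) of 6 h regions on chromosome 3, the lowest share, and 1.75% (1.15 to 2.55) on the X chromosome, the highest, with 26 of 1485 there.

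**Figure D4:**
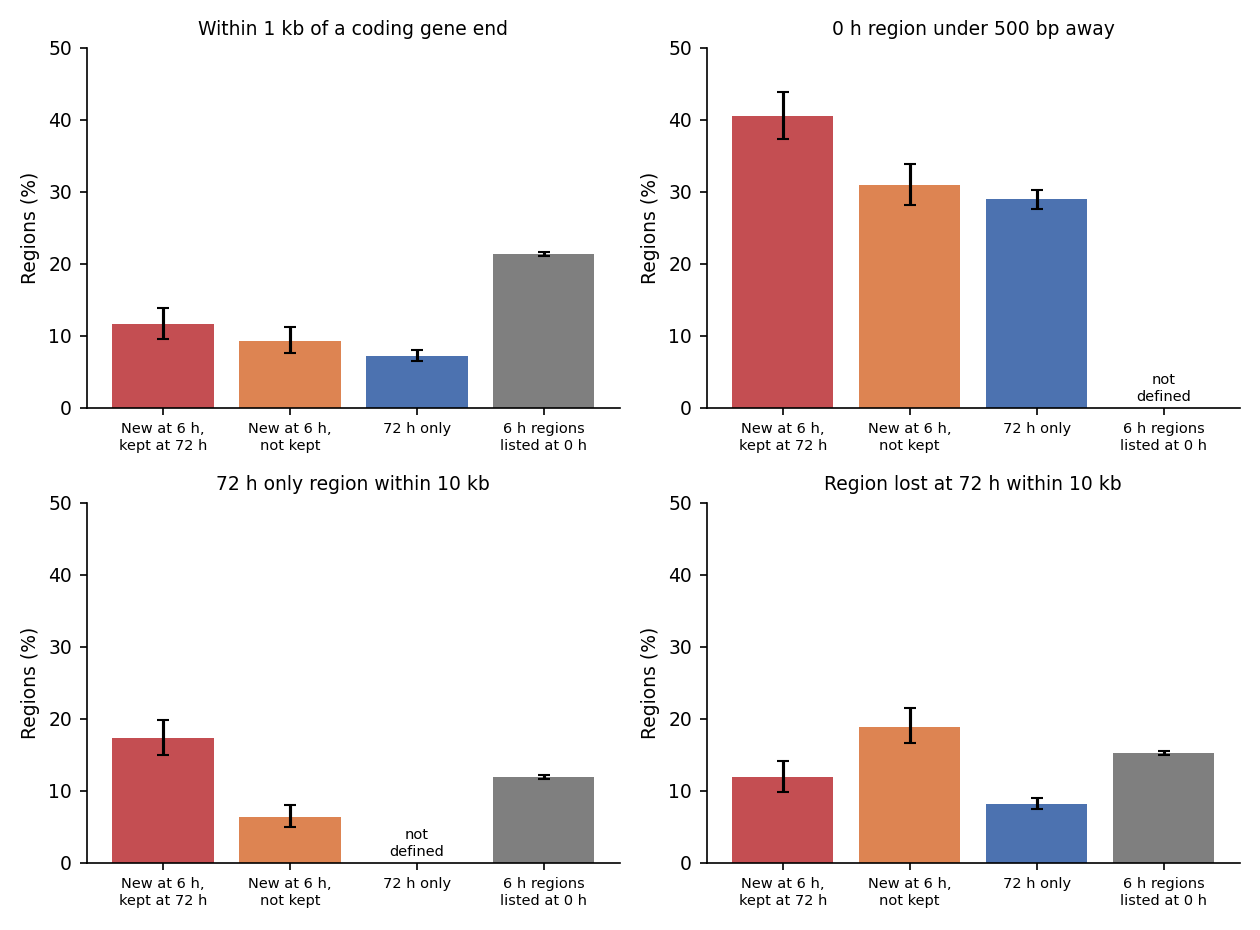
Share of regions (bars, %, with exact 95% intervals) in 4 groups that lay within 1 kb of a coding gene end, under 500 bp from a 0 h region, within 10 kb of a region listed only at 72 h, or within 10 kb of a region lost at 72 h. Members, at the left of each panel, stand at 40.5% for a near 0 h region and at 17.3% for a near 72 h only region. A measure not drawn for a group is marked as not defined. Of the 72 h only regions, 22.9% had another of their own group within 10 kb.

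By nearest gene end within 100 kb, 853 members were assigned to 799 genes, of which 751 had 1 member, 43 had 2, 4 had 3 and 1 had 4. The gene with 4 was Klf6, an early-response zinc finger factor that is high in myeloid cells. Its members lay 57221 bp, 44304 bp and 538 bp from one or the other gene end and, on chromosome 13 at 5889693 to 5889919, 19397 bp from it. Their 6 h folds were 5.27, 8.29, 6.78 and 3.77 in that order, and their 72 h folds 7.03, 14.8, 4.68 and 7.81. All 4 had a 0 h region 69 to 208 bp away, so they flanked chromatin listed before dTAG.

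Adgre1, the macrophage antigen F4/80, had 3 members on chromosome 17. The one at 57481449 to 57481621, inside the gene, had a fold of 8.29 at 6 h and 14.8 at 72 h, and the other two had 5.27 and 8.29 at 6 h and 4.68 each at 72 h. Their gaps to 0 h were 1549 to 6465 bp, and the Adgre1 locus, here its span and 10 kb of flank at both ends, also held 3 regions listed only at 72 h. Dusp5, a nuclear phosphatase of ERK, had 3 members with folds of 3.01, 6.03 and 5.27 at 6 h and 15.6, 15.6 and 7.03 at 72 h, with gaps of 791 to 2102 bp. The first of them lay 68624 bp from Dusp5 and only 101 bp from a start of another gene, 4833407H14Rik. The others lay 1524 and 5899 bp from an end of Dusp5. The 3 members of Coro1c, an actin-binding coronin, lay between 4.52 and 5.27 in the 6 h list and between 7.03 and 9.37 in that of 72 h.

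The members assigned to Ccny, a cyclin, all lay 39366 bp or more outside the gene on chromosome 18, and 2 of the 3 shared a single 72 h region of 1452 bp and fold 34.3. Both of their 72 h regions also met a 0 h region. Vgll4, Zdhhc7, Mbnl2 (a splicing regulator), Sec22c (a vesicle trafficking protein), Add3 (a membrane skeleton protein), Eri1 (a nuclease of histone mRNA) and Apol8 (an apolipoprotein L), with 2 members each, completed the 12 genes; they were taken from the 43 genes with 2 members by the highest 6 h −log10 q. The Apol8 locus held 8 regions listed only at 72 h. Of these 12 genes, 8 were also among the first 12 when members inside the gene span with 10 kb flanks were counted.

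Of 21631 coding genes, 816 (3.77%) had a member in their locus, and of the 461 genes of 18 lists of cell types and processes 32 (6.94%) did. List loci hold many regions: they had 1.40 members per 100 6 h regions of at least 150 bp, against 1.04 over all coding genes. Counts per list were 0 to 4 genes, so no list is singled out.

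Of the neutrophil lists, 3 of 32 mature neutrophil genes had a member. Itgam, the CD11b integrin chain, held one of 5.27 at 6 h and 11.7 at 72 h, and its partner Itgb2, of the secondary and tertiary granule list, had one 7148 bp from the gene with 5.27 and 4.68. Lilrb4a, an inhibitory receptor, held one of 6.78 and 5.46, and the other in its locus, of 5.27 and 13.3, lay 9922 bp away in its flank and inside the neighbouring gene Lilr4b. Selplg, the selectin ligand PSGL-1, shared with Coro1c a member of 5.27 and 8.59. Cd177 was the other of 2 among 25 secondary and tertiary granule genes. All of these neutrophil list members had a 0 h region 103 to 487 bp away.

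Of the 17 genes placed in the primary granule list, 3 had a member in their locus. Rgcc, a regulator of the cell cycle placed in this list, held one with 6.78 (8 fragments) at 6 h and 21.9 (27 fragments) at 72 h. A 0 h region of fold 30.2 lay 450 bp from it. Nkg7, a cytotoxic granule protein, had 2 in its flank with 6.03 and 3.77 at 6 h and 6.25 and 10.9 at 72 h. They lay 5015 and 9745 bp from Nkg7, nearest to a start of Etfb, and 116 and 3761 bp from a 0 h region. Cst7, the inhibitor cystatin F, had one 405 bp from the gene with 4.52 and 4.68, and 169 bp from a 0 h region. Adgre1 was the only one of 25 monocyte and macrophage genes with a member.

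Among 32 myeloid transcription factors, Runx2, Klf6 and Batf (6.03 and 5.46) had a member, and among 25 progenitor and stem genes Etv6, an ETS repressor, with 6.03 at 6 h and 13.3 at 72 h. Irf2, a repressor of interferon genes, had a member 7037 bp away with 4.52 (5 fragments) at 6 h and 21.9 (27 fragments) at 72 h, and a 0 h region lay 3602 bp off. The other interferon gene of 28 was Oas2, with 4.52 and 3.12. Of 34 inflammatory and NF-kB genes, Nfkbia, the inhibitor of NF-kB, had one with 3.77 and 5.46. Gaps to 0 h were 201 bp for Klf6, 374 bp for Etv6 and 513 bp for Nfkbia. They were 568 bp for Runx2, 1032 bp for Oas2 and 2203 bp for Batf.

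The p53 and apoptosis list had 4 of 32 genes with a member, with 6 h folds of 4.52 to 7.54. Gadd45a, a stress sensor, had 5.27 at 6 h and 11.7 at 72 h, Cdkn1a, the cell cycle inhibitor p21, 7.54 and 6.25, and Fas, the death receptor, 6.03 and 3.90. The other was Trp53 itself, named after its values were seen, with 4.52 and 7.03. Of 37 cell cycle genes Ccne2, a cyclin of the G1/S step, had one with 6.03 and 3.90. The Trp53 member lay 225 bp from a 0 h region of fold 78.6, and that of Cdkn1a 467 bp from a 0 h region. Gaps to 0 h were 2466 bp for Fas, 3222 bp for Gadd45a and 9598 bp for Ccne2.

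The list of cohesin, its loaders and CTCF had 2 of 19 genes with a member. That of Rad21, the kleisin subunit of cohesin, lay inside the gene at chromosome 15, 51985466 to 51985710, and had 5.27 (6 fragments) at 6 h and 10.1 (12 fragments) at 72 h, 4930 bp from the nearest 0 h region. That of Ctcf, in its flank, had 7.54 and 5.46 and lay 191 bp from a 0 h region. Lamina and nuclear envelope genes had 3 of 21, namely Lmnb2, a B-type lamin (6.78 and 4.68), Emd, emerin (6.03 and 4.68), and Nup210, a pore protein (5.27 and 4.68). Their gaps to 0 h were 68, 1299 and 330 bp in that order.

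Lists of other lineages also had members: 2 of 26 lymphoid genes (Cd79a and Tcf7, with 72 h folds of 5.46 and 3.90), 1 of 32 non-myeloid genes (Sftpc, the surfactant protein C, with 4.68), and Il4 and Il13, which shared 1 region of 5.27 at 6 h and 7.03 at 72 h, of 17 mast cell, basophil and eosinophil genes. None of 24 dendritic genes or 21 erythroid and megakaryocyte genes had one, and of 26 housekeeping genes Eef2 did (4.52 and 5.46). The region of Il4 and Il13 lay 138 bp from a 0 h region, and the other members of this paragraph 1081 to 3060 bp. Outside Cd177, Runx2 and Adgre1, the 6 h folds of list members were at most 7.54.

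**Figure D5:**
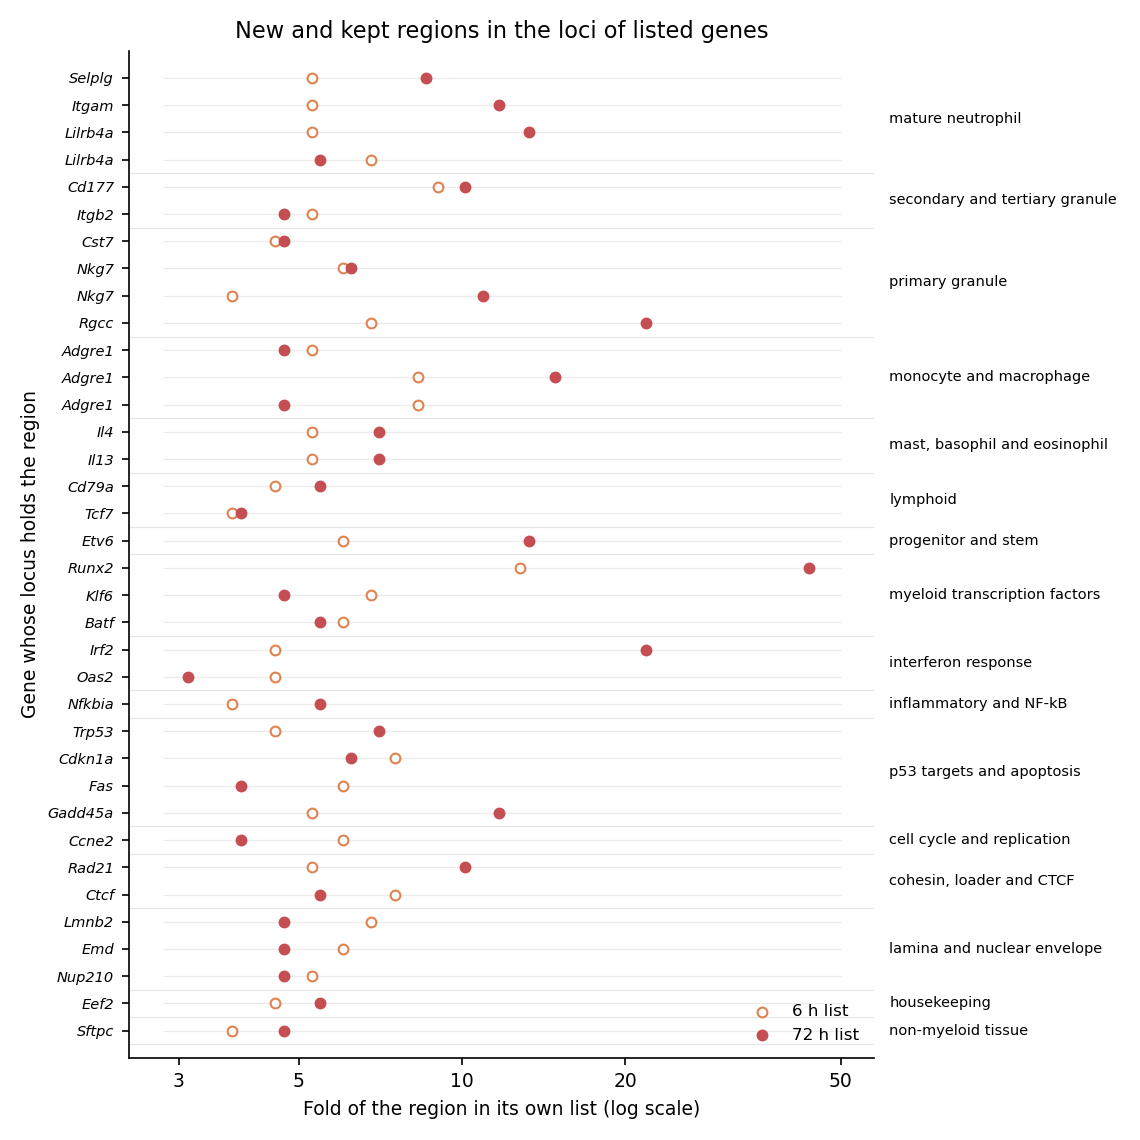
Fold (x, log scale) of each member in the locus of a listed gene, in the 6 h list (open circles) and of the overlapping region in the 72 h list (filled circles), with genes grouped by list at the right; Il4 and Il13 share a region. Runx2 stands highest at both times with 12.8 and 43.7, and Rgcc and Irf2 follow at 72 h with 21.9 each; folds of 2 lists are shown side by side and do not measure a change.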

How the data were processed

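ATAC-seq was analysed for 3 libraries of 50000 cells, 1 at each time, from the peak list the authors deposited for each. Per the submitters' processing notes, the tools included BWA 0.7.17, MACS2 2.2.7 and bedtools 2.30.0 and the build was mm10. For options, duplicates and read shifts, nothing is given in the sources used here, and read totals were not used here. The authors' lists give each region's position, its fold (a ratio of summit to background) and its −log10 p-value and −log10 q-value, and a score that the authors deposited as 10 times the −log10 q, truncated, which was not needed. All folds lay on an even grid, within 0.01 of a step. If the fold is the summit fragments plus 1 over the background plus 1, the steps give backgrounds of 0.323, 0.327 and 0.281 fragments at 0 h, 6 h and 72 h. Whether the unit of the steps is a fragment or a read is not given in the sources used here.

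Regions were matched by at least 1 bp, in Python 3.11.15 with pandas 2.3.3, checked against bedtools 2.31.1 and tested on simulated lists. When a member met several 72 h regions, the highest was taken. Gene spans came from RefSeq on GRCm38.p6 without strand, so distances are to either gene end. Of 476 entries in 18 gene lists, 473 matched (Tpsab1, Azu1 and Ahsp did not). Shares have exact Clopper-Pearson 95% intervals. Regions within one list are not independent replicates.

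Members and lists were chosen with earlier results of these data known. Genes were named by rule: the 12 with most members by nearest end within 100 kb (ties by 6 h −log10 q), those nearest the 15 highest members at 6 h and the 10 highest at 72 h, and up to 3 genes per list. Ties among the 15 at 6 h were broken by 72 h −log10 q. Others are named as chosen after their values were seen. Sequences were to come from the highest members, but none of those 15 and 10 had its summit in a promoter window, so promoters were chosen by summit alone. Promoter windows covered the chromosomes used except chromosome 18, which held 30 of the 920 members. Alternatives were minimum length, overlap, distance to 0 h, thresholds, flanks and windows.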

Additional observations from a re-analysis of the deposited data

How the results depend on the processing

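No paired analysis was possible because each time has 1 library, and leaving out a library leaves no comparison. With no minimum length there were 9759 members, 25.2% of new and 73.2% of 0 h-listed 6 h regions were kept, 29.2% of members had another within 10 kb, median ranks were 8.87 at 6 h and 21.6 at 72 h, and 29.5% of coding genes had a member in their locus. With 200 bp there were 215, and these values were 53.5%, 94.4%, 0%, 2.16, 10.6 and 0.980%, with 14.4% near a gene end and 60.0% inside genes. With 50% overlap at 72 h, 89.4% of 0 h-listed regions were kept and the 6 h rank was 2.45. With no 0 h region within 500 bp there were 547, 43.4% and 89.4% were kept, 4.39% lay near a gene end, 3.11% near another member and 2.04% of genes had one. With a 6 h −log10 q of at least 10 there were 135, 69.2% and 94.2% were kept, 8.89% lay near a gene end, 2.96% near another, 64.4% inside genes, the 72 h rank was 19.3 and 0.633% of genes had one. With a 6 h fold of at least 5, 54.7% and 90.7% were kept, 3.51% lay near another, ranks were 5.27 and 17.3 and 2.66% of genes had one. With a 72 h −log10 q of at least 10 there were 415, 21.3% and 73.9% were kept, 8.43% lay near a gene end, 4.10% near another, ranks were 2.24 and 19.7 and 1.73% of genes had one. With 50 kb flanks 9.15% of genes had a member, and with a 2 kb window 18.3% of members lay near a gene end. With 6 h −log10 q under 10, added after seeing the data, 44.7% and 62.7% were kept. The changed lengths, thresholds, flanks and windows alter by construction which regions are counted; other causes were not tested. The share of new regions kept stayed below that of 0 h-listed regions in each setting that changed it. Another 22 values moved by less than their interval or, for counts, 1.5 times. A summit of 3 fragments limits what the lists can show.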
